A study of Mus musculus with 6 samples.

Results

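CpG islands (CGIs) are short stretches of DNA rich in CG dinucleotides. Most of them sit at gene starts and carry little 5-methylcytosine, and a smaller set, mostly inside genes, is methylated in nearly every cell. At gene starts, dense methylation goes along with stable silencing, and germline genes that are shut off in somatic cells are the classic example. Inside transcribed genes, methylation is laid down by the DNA methyltransferases during elongation and does not go with silencing.

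The CGIs described here were methylated in nearly all reads of CD8+ T cells. A CGI was included if at least 5 of its CpGs had 5 or more reads in all 6 libraries and if the level, methylated over total reads pooled over all 6 libraries, was over 80%. Of 15607 CGIs called on the autosomes of GRCm38 (mm10), 12287 had enough reads to be tested, and 617 of these (5.02%) were over 80%. For comparison, 501 were partly methylated (20% to 80%) and 11169 were unmethylated (under 20%). The members were chosen by this pooled level, so levels of the whole set are given as a description. The place in genes and the flanks were not used by the rule. Length, GC content and CpG ratio were used to call every CGI, but not to sort CGIs by level. The differences between genotypes were not used directly, but they are not independent of the choice, since all 6 libraries entered the pooled level. A CGI under 80% in some libraries could pass on the reads of the others, and libraries with more reads weighed more.

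The libraries came from CD8+ T cells enriched with magnetic beads from lymph nodes (LNs) of C57BL/6N mice at 13 weeks. WT mice, mice carrying a human STAT5B transgene (hSTAT5B +/T) and mice carrying the human STAT5B transgene with the N642H mutation (hSTAT5BN642H, +/T) were represented by 2 libraries each. Both transgenes are driven by the Vav1 promoter, which is active in all blood cells, so the transgene was not confined to T cells. The hSTAT5BN642H mice were diseased when sampled and the others were not, so genotype and disease cannot be told apart. Whether the 2 libraries of a genotype came from separate mice is not stated, and the p-values below measure the spread between these libraries only.

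The libraries held 43291086 to 67007186 reads over CpGs, with a median of 5 to 11 reads per CpG. WT replicate 1 had the lowest median, and hSTAT5BN642H replicate 1 had the highest. Among the CD8+ T cell markers, Cd8a, which encodes the CD8 alpha chain, had mean levels of 48.3% and 16.3% in the WT libraries, 14.8% and 26.4% in hSTAT5B and 8.2% and 6.57% in hSTAT5BN642H. WT replicate 1 was the highest at this marker, and results that moved by over 1.5 times without it are given without it too. Several of the markers also differed by genotype. Thy1, Cd5 and Cd6 were lowest in both hSTAT5BN642H libraries, as Cd8a was. Lck (31.6% to 34.3% over the libraries) and Cd3g (71.9% to 78.7%) were not. Cd8b1, which encodes the CD8 beta chain, was at 45.6% and 44.7% in WT, 25.96% and 27.6% in hSTAT5B and 15.4% and 15.3% in hSTAT5BN642H. The 7 CD8+ T cell markers with 3 or more CpGs averaged 57.8% and 50.7%, 48.4% and 49.2%, and 43.8% and 42.2% in the same order. The 2 CD4+ T cell markers with as many CpGs averaged 48.2% to 51.6% over the libraries, and the 4 myeloid markers 65.0% to 66.9%.

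The 617 CGIs were close to saturated. The pooled level was 80.3% at the lowest, 97.02% at the median and 99.8% at the highest. It exceeded 90% at 524 CGIs and 98% at 176. The median SD between the CpGs of a CGI was 2.65 percentage points, against 15.7 in partly methylated and 2.77 in unmethylated CGIs. Levels near either end of the scale leave little room for spread. The contrast with partly methylated CGIs thus follows in part from the 80% threshold. Some members were uneven, such as those in Mex3a (SD 16.5 points) and Xkr7 (SD 16.9 points). Of 7519 CpGs, 56 were under 50% (in 43 CGIs) and 1131 were methylated in every read. The set has no sharp edge. The CGIs just inside the threshold were in Syk (80.3%), Bcl6b (80.3%) and Kif26a (80.5%), and those just outside were in Rasip1 (79.9%), near Zfp991 (79.9%) and in Pou6f1 (79.5%). A further 66 CGIs lay between 70% and 80%. The highest levels with 100 or more reads in every library were at the zinc finger gene Zfp219 (99.3%), the germ cell dipeptidase gene Dpep3 (99.2%) and the adhesion receptor gene Adgrl2 (99.2%).

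Sequences of 4 such CGIs show the places described below. The first pair lie just upstream of the starts of Hormad1, which encodes a protein of the meiotic chromosome axis, and Slc25a31, which encodes the germ cell ADP/ATP carrier. The second pair lie in coding exons of Zfp219 and of Bcl11b, a zinc finger transcription factor required for T cell commitment. Each is written 5′ to 3′ on the strand of the gene, from GRCm38, with every CG in capitals.
Hormad1, chr3:95559527-95559676, plus strand: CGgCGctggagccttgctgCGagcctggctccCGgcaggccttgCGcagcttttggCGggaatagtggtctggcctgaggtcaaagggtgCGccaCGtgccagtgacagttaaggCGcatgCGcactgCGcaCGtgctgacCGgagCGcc
Slc25a31, chr3:40708699-40708854, plus strand: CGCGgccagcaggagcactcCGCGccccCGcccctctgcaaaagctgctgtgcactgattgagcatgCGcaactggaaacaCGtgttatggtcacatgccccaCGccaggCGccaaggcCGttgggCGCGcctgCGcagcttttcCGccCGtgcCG
Zfp219, chr14:52006660-52006859, minus strand: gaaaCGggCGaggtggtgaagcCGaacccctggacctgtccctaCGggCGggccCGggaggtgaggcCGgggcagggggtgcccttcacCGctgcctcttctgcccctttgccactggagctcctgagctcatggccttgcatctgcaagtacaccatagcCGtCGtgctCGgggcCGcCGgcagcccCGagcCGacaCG
Bcl11b, chr12:107915617-107915816, minus strand: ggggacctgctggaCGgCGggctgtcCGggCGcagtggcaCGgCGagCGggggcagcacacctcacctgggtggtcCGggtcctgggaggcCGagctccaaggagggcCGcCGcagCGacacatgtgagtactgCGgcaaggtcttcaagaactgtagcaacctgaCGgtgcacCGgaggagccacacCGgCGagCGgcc
In the Hormad1 stretch, 8 of 14 CpGs had 5 or more reads in every library and lay between 93.9% and 100%. In the Slc25a31 stretch, 8 of 16 CpGs were read and lay between 95.1% and 100%. The Zfp219 stretch had 13 of 16 CpGs read, at 91.1% to 100%, and the Bcl11b stretch 13 of 18, at 94.3% to 99.5%. Over all members, the median pooled level was 96.3% at starts and 97.3% in coding exons.

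Fully methylated CGIs were mostly in the bodies of protein-coding genes. A coding exon more than 1000 bp from any start held 336 of the 617 (54.5%), against 24.2% of partly methylated and 3.29% of unmethylated CGIs. Only 47 (7.62%) spanned the transcription start of a protein-coding gene, against 78.8% of unmethylated CGIs, and 50 more were within 1000 bp of one. A further 60 were in introns or other exons, 54 in non-coding genes or pseudogenes alone, 6 in 3′ UTRs and 64 between genes. Seen from the other side, 40.8% of the 824 tested CGIs in coding exons were fully methylated, and 0.523% of the 8981 that spanned a start.

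**Figure D1:**
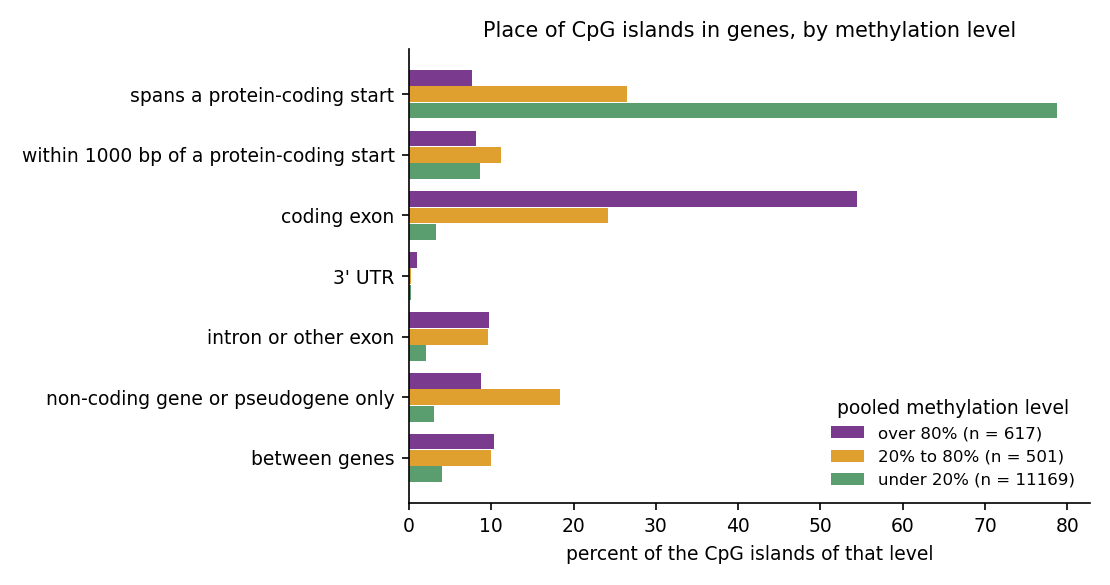
Place of CGIs relative to protein-coding genes. Bars give the percent of CGIs of each pooled methylation level (over 80%, n = 617; 20% to 80%, n = 501; under 20%, n = 11169) on the horizontal axis, and places are on the vertical axis. Coding exons hold 54.5% of the fully methylated CGIs and 3.29% of the unmethylated ones, and the order is turned round at transcription starts.

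Inside genes they lay toward the 3′ end. Among the 401 members inside a gene and over 1000 bp from a start, the median position was 78.7% of the way from the 5′ to the 3′ end of the gene (quartiles 49.6% and 90.5%). The unmethylated CGIs in the same kind of place had a median of 59.6% and the partly methylated ones of 65.1%. The last exon was touched by 177 of the 401 (44.1%), which is near the 40.1% of unmethylated CGIs. Coding sequence made up a median of 99.2% of these members and 48.5% of the unmethylated CGIs.

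Where a CGI at the start was tested, the genes that held a methylated CGI in their body nearly always had an unmethylated one there. Of 382 such genes, 267 had a tested CGI at a start, and the lowest of these CGIs was under 20% in 265 genes, with a median of 2.16%. The other 2 genes were between 20% and 80%. This is close to the rest of the genome, since 8801 of all 8981 CGIs at starts, counted per CGI and not per gene, were unmethylated.

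Compared with the other CGIs, the members were short and less dense in CpGs. The median length was 307 bp, against 485 bp for partly methylated and 653 bp for unmethylated CGIs. The observed-to-expected CpG ratio was 0.837, 0.892 and 0.934, and the GC content 63.2%, 66.5% and 66.9%. The number of CpGs per CGI was 26, 45 and 68. Members at starts had a median length of 428 bp and 38 CpGs, longer than those in coding exons (350 bp and 28 CpGs) and between genes (228 bp and 19.5 CpGs). Because short CGIs hold few MspI sites (a median of 3 against 9 for unmethylated CGIs), a member's level rested on a median of 9 CpGs and on 172 reads in its least covered library.

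The letters of 2 promoter elements were also less frequent. In the central 200 bases, on either strand, GGGCGG (the GC box bound by Sp1) was present in 158 members (25.6%) and in 55.9% of all tested CGIs. Within coding exons the gap was narrower, with 28.6% of members and 35.1% of all tested CGIs there, and at starts it was wide, with 31.9% and 60.6%. TCCCGC, a core of E2F sites whose complement GCGGGA can overlap a GC box, was present in 16.7% of members and 35.6% of all. In coding exons it was present in 16.7% and 22.8%, and at starts in 8.51% and 37.8%. CACGTG, an E-box bound among others by Myc, Max and Usf, was present in 9.08% of members against 5.14% of all, and in coding exons in 8.93% against 7.52%. At starts alone CACGTG was in 10 of 47 members (21.3%) and in 4.8% of all start-spanning CGIs. ATTGG, the CCAAT box read on the other strand, was at 9.56% and 11.9%. These letters are a description of the windows and not of binding, and CACGTG stands in the Hormad1 stretch printed above.

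The DNA beside the members was methylated as well. CpGs within 250 bp of the CGI edge had a median level of 97.1%, against 53.6% beside partly methylated and 4.19% beside unmethylated CGIs. At 1000 to 2000 bp the medians were 95.4%, 89.6% and 84.7%, and at 2000 to 4000 bp they were 93.5%, 87.4% and 90.6%. The members thus showed no step at their edges, and the medians of the 3 classes lay near each other at 2000 to 4000 bp.

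**Figure D2:**
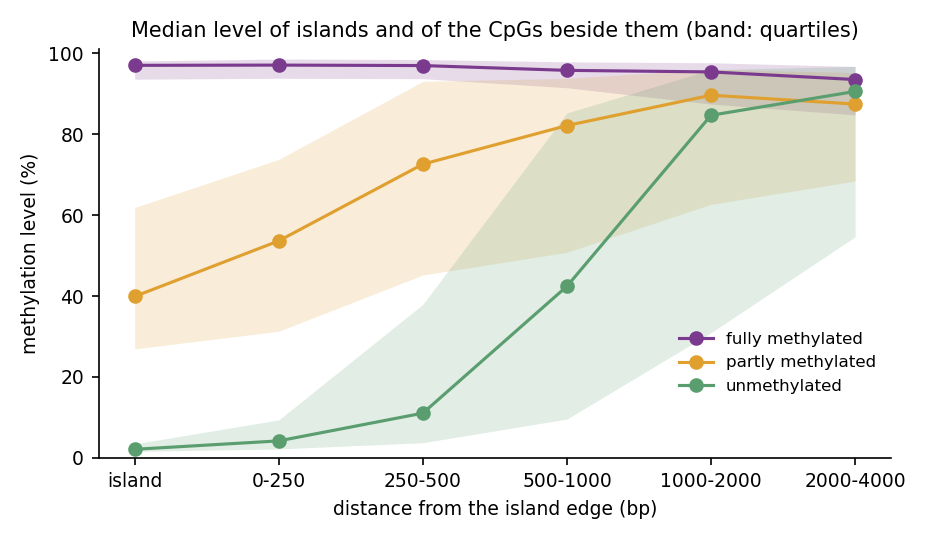
Methylation level of CGIs and of the CpGs beside them. The horizontal axis gives the distance from the CGI edge in bp and the vertical axis the median level in percent over CGIs of each class, with the quartiles as a band. Fully methylated CGIs stay at 93.5% to 97.1% at all distances, and unmethylated CGIs climb from 2.11% to 90.6%.

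A few members were methylated beside low flanks. Of 449 members with 3 or more CpGs read within 2000 bp and outside any CGI, 14 had flanks under 50%. Gata3, the transcription factor of T helper 2 cells that is also needed early in T cell development, had 92.6% in a coding-exon CGI (chr2:9874642-9874956) and 8.18% on 10 CpGs beside it. The zinc finger gene Zfp579 had 94.0% against 4.99% on 28 flanking CpGs. Cwc22, a splicing factor gene, had 96.9% at a CGI that spans an internal start and 6.34% on 3 CpGs. The same order was seen for a CGI of Apc2, a relative of the Wnt regulator Apc, with 97.8% inside and 27.9% on 11 CpGs outside.

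The 47 start-spanning members covered the starts of 49 protein-coding genes. At 20 of the 47 the start belonged to another transcript of a gene, and no outermost 5′ end of a gene was inside. The rest of the 47 held the outermost 5′ end of a gene. Counted over all 617 members, 28 held such an end. The starts included those of many genes used in germ cells. Among the germline and meiosis genes listed for this work, 21 had a tested CGI at a start, and 12 of these (57.1%) were fully methylated, against 49 of 9505 genes (0.516%) over all. The 12 were Ddx4, Dpep3, Hormad1, Mael, Rnf212, Slc25a31, Spo11, Sycp1, Sycp2, Sycp3, Tdrd1 and Tuba3a. The list was written with earlier results of these data known, so its share is a description and depends on the genes listed.

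Ddx4 (the germ cell RNA helicase Vasa) had 97.9% and 96.4% in WT, 98.3% and 96.6% in hSTAT5B and 95.7% and 96.5% in hSTAT5BN642H (chr13:112651960-112652503, 28 CpGs). Spo11, which makes the DNA breaks that start meiotic recombination, had 97.9% and 99.02%, 97.1% and 97.3%, and 97.4% and 97.8% in the same order (chr2:172979772-172980130). Mael, a piRNA pathway gene, had 91.7% and 96.4%, 94.3% and 93.0%, and 96.0% and 91.4%. At Mael the 3 genotypes overlapped. At Ddx4 both hSTAT5BN642H libraries were below both hSTAT5B libraries, and at Spo11 both WT libraries were above the other 4. Sycp1, which encodes the transverse filament of the synaptonemal complex, was lower, at 89.7% and 89.2%, 90.4% and 88.5%, and 87.1% and 89.2%. Tdrd1, a tudor protein gene of the piRNA pathway, was the lowest of the 12, at 85.2% and 82.0% in WT, 81.2% and 76.4% in hSTAT5B and 77.8% and 86.7% in hSTAT5BN642H. Sycp2 was the least well read, with 304 reads in all, and ranged from 76.4% to 100%.

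The other 9 listed germline genes with a tested start were under 80%. Adad1 (79.0%), Dazl (71.8%), Meioc (67.2%) and Smc1b (21.4%) were partly methylated at the start. Tdrd6 (6.55%), Tdrd5 (3.92%), Tex15 (1.93%), Mei4 (1.72%) and Mnd1 (0.428%) were unmethylated.

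Other members at starts included testis-expressed copies of housekeeping genes. Naa11, a copy of the N-terminal acetyltransferase gene Naa10, was at 97.5% pooled, with libraries from 96.3% to 98.5%. D1Pas1, a testis DEAD-box helicase gene without introns, ranged from 95.2% to 98.8%, and Wdr20rt, a retrogene of Wdr20, from 94.5% to 98.4%. Of the 49 genes, 4 had a single exon (8.16%, against 2.56% of the 9505), and Mcts2, an imprinted retrogene inside an intron of H13, was among them. The most deeply read members were also at starts. Sfi1 had 244471 reads and 93.4%, and a CGI shared by 3110070M22Rik and Tmem267 had 81892 reads and 92.9%, where a median member had 1583 reads.

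**Figure D3:**
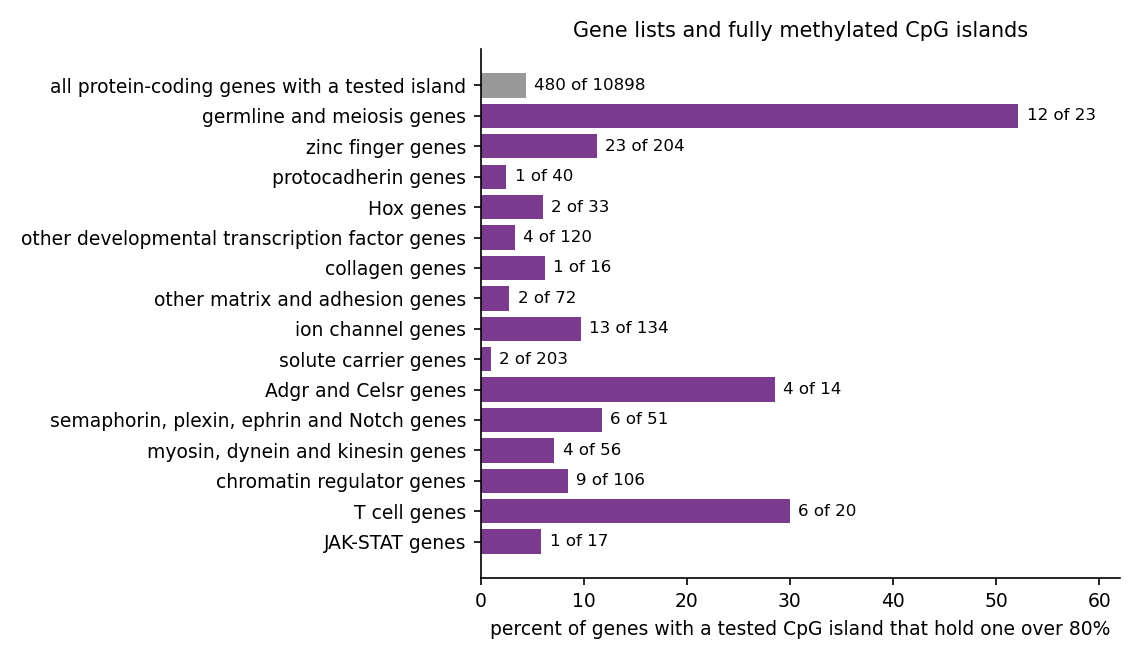
Genes of each list with a fully methylated CGI. The horizontal axis gives the percent of genes overlapped by a tested CGI that held one over 80%, with the counts beside each bar, and the grey bar gives all protein-coding genes (480 of 10898, 4.4%). Germline and meiosis genes (12 of 23), T cell genes (6 of 20) and Adgr and Celsr genes (4 of 14) have the longest bars. The lists were written with earlier results of these data known.

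Gene classes were compared by the share of genes with a tested CGI that held a fully methylated one, which was 480 of 10898 protein-coding genes (4.4%). As the lists were written with earlier results known, the shares are a description. Zinc finger genes had 23 of 204 (11.3%) and none at a start. Their 25 CGIs were in coding exons in 21 cases, and 22 touched the last exon, which in such genes often encodes the zinc fingers. The pooled levels ran from 83.7% to 99.3%. Zfp282 had 98.8% and 99.4% in WT, 98.7% and 99.4% in hSTAT5B and 98.5% and 98.6% in hSTAT5BN642H, and Zfp467 ranged from 96.3% to 98.3%.

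T cell genes had 6 of 20, and none at a start. All 6 were in coding exons of transcription factor genes, Bcl11b, Gata3, Nfatc1, Nfatc2, Runx1 and Runx3. Runx3, which represses Cd4 in CD8+ T cells, was the lowest, with 91.7% and 87.3% in WT, 94.0% and 88.9% in hSTAT5B and 91.8% and 90.9% in hSTAT5BN642H. Runx1 had 97.1% and 98.5%, 97.8% and 97.6%, and 98.7% and 95.03%. Gata3 had 91.9% and 92.5%, 94.2% and 96.8%, and 94.0% and 87.0%. The libraries of the 3 genotypes overlapped at Runx3 and Runx1, and at Gata3 the hSTAT5B libraries were above the other 4. In 5 of these genes a CGI at a start was tested too, and its level was 3.55% in Gata3, 1.56% in Nfatc1, 2.8% in Nfatc2, 2.97% in Runx1 and 1.3% in Runx3. Of 17 JAK-STAT pathway genes with a tested CGI, Jak3, the kinase of the common gamma chain receptors, held 1 member, at 90.8% to 93.5% over the libraries.

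Genes of large membrane proteins were also present. Ion channel genes had 13 of 134 (9.7%), Adgr and Celsr adhesion receptor genes 4 of 14, and semaphorin, plexin, ephrin and Notch genes 6 of 51 (11.8%). Examples were Grin3b, an NMDA receptor subunit gene (98.5%), Ryr1, the calcium release channel of skeletal muscle (91.5%), and Notch1 (95.4%). Chromatin regulator genes had 9 of 106 (8.49%), among them the histone demethylase gene Kdm6b (98.4%) and the remodeller gene Chd7 (98.8%). Myosin, dynein and kinesin genes had 4 of 56 (7.14%), collagen genes 1 of 16, Hox genes 2 of 33 (1 CGI), other developmental transcription factor genes 4 of 120 (3.33%), other matrix and adhesion genes 2 of 72 (2.78%), protocadherin genes 1 of 40 (2.5%) and solute carrier genes 2 of 203 (0.985%). Gm20388, whose gene model reads through several genes, held 6 members, Abr held 4, and Agap2 and Zfhx3 held 3 each.

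Some members have near copies elsewhere. After conversion of C to T on either strand, 434 members had no 50-base window that occurred again on the chromosomes of GRCm38, and 146 (23.7%) had over 10% of their windows repeated. The share was 2.98% in coding exons, 4.26% at starts, 65% in introns or other exons and 75% between genes. Reads of the repeated members could have come from another copy, so their levels are uncertain. Without them, 471 members were left, of which 88.1% were inside a protein-coding gene, against 76.2% of all 617. Copies that are missing from the chromosome sequences could not be found by this search. The 471 members are therefore not shown to be free of reads from other copies.

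The genotypes were compared to ask whether the level of these CGIs differed between them. The mean was slightly lower in hSTAT5BN642H. The mean over the 617 CGIs was 94.9% and 95.3% in the WT libraries, 95.4% and 95.4% in hSTAT5B and 94.4% and 94.7% in hSTAT5BN642H. Both hSTAT5BN642H libraries were below the other 4 when each CGI counted the same. With reads pooled over the members, WT replicate 1 was the lowest at 94.11%, against 94.23% and 94.15% in hSTAT5BN642H, and at starts it was at 91.95% against 93.84% and 93.27%. Without the 2 members of over 50000 reads, the pooled levels of hSTAT5BN642H (94.3% and 94.4%) were below those of the other 4 libraries (94.9% to 95.3%). Averaged by genotype (SD, n = 2 libraries each), WT was at 95.1% ± 0.259, the hSTAT5B line at 95.4% ± 0.0131 and the hSTAT5BN642H line at 94.5% ± 0.187.

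The hSTAT5BN642H mean was 0.535 percentage points below WT (a difference of -0.535) and differed by -0.859 from hSTAT5B, and hSTAT5B was 0.324 points above WT. These differences were larger than the pooled SD of the libraries (0.226, 0.132 and 0.183 points), but with 2 libraries a genotype the spread itself is poorly known. Without WT replicate 1 the difference of hSTAT5BN642H from WT was -0.718 points, and without WT replicate 2 it was -0.352. The difference of hSTAT5B from WT was 0.141 and 0.507 points in the same cases, and 0.161 at the CGIs over 90%. Without the 146 members with repeated windows the difference of hSTAT5BN642H from WT was -0.602. The median over CGIs gave the same order, with 97% and 97.2%, 97.3% and 97.3%, and 96.4% and 96.5%. The average of the 7 CD8+ T cell markers given above was also lowest in both hSTAT5BN642H libraries, though Lck and Cd3g were not. The part of the cells' makeup in the lower mean was not tested.

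The CpGs within 2000 bp of the members and outside any CGI did not separate the genotypes in this way. Their means were 90.2% and 90.1% in WT, 90.4% and 90.5% in hSTAT5B and 90.05% and 90.2% in hSTAT5BN642H (4311 CpGs). Within the members, CpGs inside the MspI site CCGG were lower than the others in every library. They averaged 92.6% and 92.9% in WT, 92.6% and 92.7% in hSTAT5B and 91.7% and 92.0% in hSTAT5BN642H (1749 CpGs), against 95.5% and 96.0%, 96.0% and 96.0%, and 95.1% and 95.2% for the other 5770. Library ends are filled in with unmethylated cytosine at that site, and the part of this step in the values was not tested. The hSTAT5BN642H libraries were the lowest in both classes of CpG.

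By place, both hSTAT5BN642H libraries were below the other 4 at starts (94.0% and 93.8%, against 94.1% to 95.2%), near starts (94.0% and 94.2%, against 94.9% to 95.3%), in coding exons (94.7% and 95.01%, against 95.2% to 95.8%) and between genes (94.7% and 95.5%, against 95.6% to 96.1%). In introns or other exons hSTAT5BN642H replicate 1 was the lowest at 94.7%, and replicate 2 at 94.97% was above WT replicate 1 at 94.8%. In non-coding genes the WT libraries held both the lowest value and one above both hSTAT5BN642H libraries, at 92.1% and 92.9%. In the 6 CGIs of 3′ UTRs the hSTAT5BN642H libraries were the highest, at 93.1% and 93.0%.

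**Figure D4:**
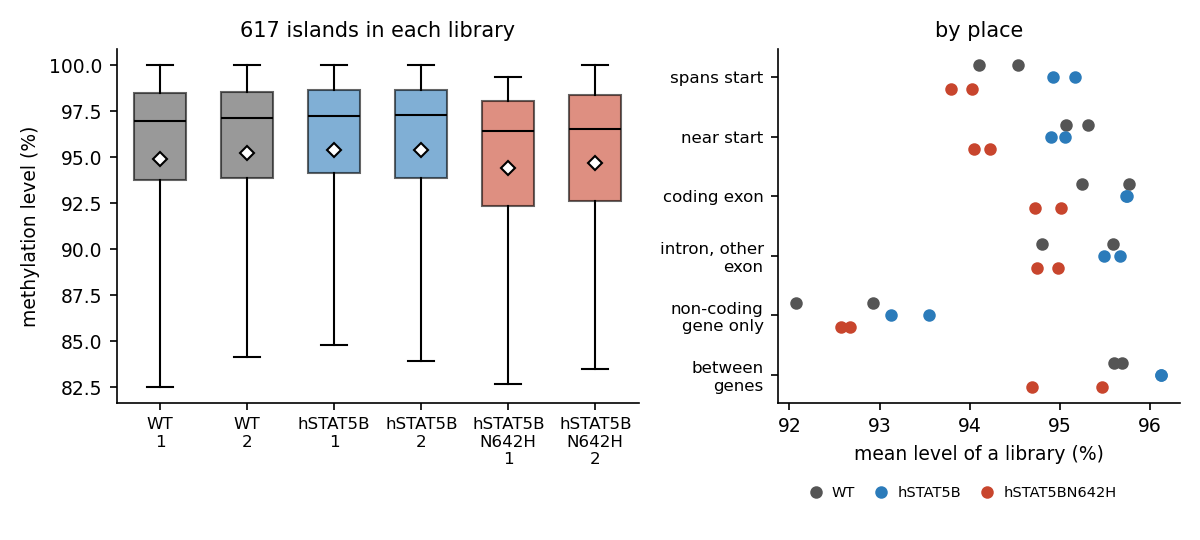
Levels of the 617 CGIs in the 6 libraries. Left, boxes give the quartiles and median, whiskers the 5th and 95th percentiles and diamonds the mean level in percent of each library; right, each point is the mean level of 1 library over the members in a place. The hSTAT5BN642H means of 94.4% and 94.7% are below the other 4, which run from 94.9% to 95.4%.

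CGI by CGI, the differences were small. Between hSTAT5BN642H and WT, 246 of 617 members (39.9%) differed by less than 1 percentage point, 229 were higher and 386 lower. The median difference was -0.506 points, with the 10th and 90th percentiles at -3.3 and 2.27. Between hSTAT5B and WT the median was 0.0629 points, with 325 higher and 290 lower. Between hSTAT5BN642H and hSTAT5B it was -0.628 points, with 223 higher and 393 lower. The medians over all 12287 tested CGIs were 0.15, 0.0603 and 0.0613 points.

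The study called a CGI different when genotype means were 5 or more percentage points apart. By that rule 21 members were higher and 31 lower in hSTAT5BN642H than in WT, which is 3.4% and 5.02% of members, against 2.78% and 1.75% of all tested CGIs. In hSTAT5B against WT, 24 were higher and 14 lower, against a background of 2.49% and 1.46%. In hSTAT5BN642H against hSTAT5B, 11 were higher and 41 lower, against 2.41% and 2.24%. The background is mostly unmethylated CGIs, which can hardly fall: 0.573% of them were 5 points lower in hSTAT5BN642H than in WT, against 24% of partly methylated CGIs. Members, in turn, have little room to rise.

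The libraries of hSTAT5BN642H and WT did not overlap at 237 members. Both hSTAT5BN642H libraries were above both WT libraries at 67 (10.9%) and below at 170 (27.6%), against 21.6% and 14.7% of all tested CGIs. For hSTAT5B against WT the counts were 100 above and 86 below, with backgrounds of 18.1% and 14.7%. For hSTAT5BN642H against hSTAT5B they were 58 above and 170 below, with backgrounds of 19.8% and 16%. Partly methylated CGIs were lower at 29.9% in that comparison, against 27.6% of members, and higher at 19.4%. Their mean difference was -1.67 points, so a lower mean was not particular to the members. In hSTAT5BN642H against WT they were lower at 19% and higher at 22.4%, with a mean difference of -0.045 points.

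Both hSTAT5BN642H libraries were below all 4 others at 89 members and above all 4 at 24, against 5.79% and 9.29% of all tested CGIs. The 89 are 14.4% of members, and the share of partly methylated CGIs was also 14.4%. For WT, 31 members were below and 43 above the other 4 libraries (background 8.5% and 5.58%), and for hSTAT5B 26 and 48 (background 6.91% and 7.17%). The comparisons share libraries, so they are not independent of each other.

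No single member passed the test. In limma, run on the log2 ratio of methylated over unmethylated reads and fitted to all 12287 CGIs, 0 members had a Benjamini-Hochberg adjusted p under 0.05 in any of the 3 comparisons, with a background of 0% in each. The smallest adjusted p of a member was 0.873 for hSTAT5BN642H against WT, 0.741 for hSTAT5B against WT and 0.805 for hSTAT5BN642H against hSTAT5B. An unadjusted p under 0.05 was reached by 50, 36 and 56 members (8.1%, 5.83% and 9.08%), against 5.6%, 5.93% and 5.67% of all CGIs. A quasi-binomial model on the read counts called 5, 0 and 4 members (background 0.301%, 0% and 0.228%). Fisher's exact test on pooled reads, which takes no account of the spread between libraries, called 68, 38 and 78 (background 8.72%, 4.9% and 8.23%).

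The CGIs with the widest differences and 50 or more reads in every library were named by size among those with no overlap, so their size is a description. An exact permutation test, 2-sided, of 2 libraries against 2 cannot go below p = 0.333, the value each of them reached. Mex3a, which encodes an RNA-binding protein, had wide differences from WT in both transgenic lines. Its coding-exon CGI (chr3:88536237-88537018, 13 CpGs) had 94.8% and 90.6% in WT, 76.0% and 74.0% in hSTAT5B and 79.3% and 69.5% in hSTAT5BN642H. Both WT libraries were above all 4 transgenic ones. The difference from WT was -18.3 points in hSTAT5BN642H (log2 ratio -2.09 ± 0.51 SE, limma adjusted p = 0.873) and -17.7 points in hSTAT5B. With every CpG of the CGI that had 5 reads in a library, these were -12.3 and -11.1 points. With 10 reads per CpG this CGI has no value. Between the transgenic lines the difference was -0.597 points.

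Several CGIs were lower in hSTAT5BN642H than in both other genotypes. In Ebi3, which encodes a subunit of the cytokines IL-27 and IL-35, the levels were 99.3% and 97.4% in WT, 96.3% and 100% in hSTAT5B and 89.3% and 83.6% in hSTAT5BN642H. The difference from WT was -11.9 points (log2 ratio -2.88 ± 0.76 SE, limma adjusted p = 0.873). The flanks of this CGI were at 43.7%. In a last-exon CGI of Apc2 the levels were 93.1% and 93.0%, 96.4% and 100%, and 84.2% and 80.8%, a difference of -15.7 points between hSTAT5BN642H and hSTAT5B. The levels at Ebi3 and Apc2 rest on 7 and 6 CpGs. Neither CGI has a value with 10 reads per CpG, so the differences were not tested at that depth. The sequences of both CGIs are printed on the plus strand, with each CG in capitals. They are shown because these coding CGIs were under 90% in both hSTAT5BN642H libraries and over 92% in the other 4.
Ebi3, chr17:55956146-55956345: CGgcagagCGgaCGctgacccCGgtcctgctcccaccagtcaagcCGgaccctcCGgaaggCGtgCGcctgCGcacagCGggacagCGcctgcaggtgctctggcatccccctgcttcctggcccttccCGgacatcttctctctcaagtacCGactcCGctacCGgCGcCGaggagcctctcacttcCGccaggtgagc
Apc2, chr10:80313116-80313315: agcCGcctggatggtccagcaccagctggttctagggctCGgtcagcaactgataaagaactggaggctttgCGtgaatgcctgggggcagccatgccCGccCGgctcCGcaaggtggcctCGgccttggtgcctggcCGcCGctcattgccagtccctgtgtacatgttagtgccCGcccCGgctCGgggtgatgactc
In the Ebi3 stretch, 7 of 18 CpGs had 5 or more reads in every library, and their pooled level was 98.1% in WT, 97.7% in hSTAT5B and 86.6% in hSTAT5BN642H. In the Apc2 stretch, 5 of 12 CpGs gave 93.1%, 98.3% and 84.6%. A CGI between genes near Zfp42, which encodes the stem cell factor Rex1, had 98% and 97.4%, 92.2% and 100%, and 88.9% and 86.2%, but 98.7% of its windows occur elsewhere.

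The 5 members that the quasi-binomial model called between hSTAT5BN642H and WT were all lower in hSTAT5BN642H. They were chosen after their values were seen. The CGI over the start of Hoxa5 and inside Hoxa3, developmental transcription factor genes (chr6:52203746-52204843, 35 CpGs), had 94.2% and 94.8% in WT, 92.3% and 92.7% in hSTAT5B and 87.5% and 83.9% in hSTAT5BN642H. The adjusted p was 0.00541 in the quasi-binomial model and 0.873 in limma. A CGI in Tmtc1, which encodes a protein O-mannosyltransferase, lies on the gene Rps4l within it (chr6:148354555-148355443, 40 CpGs). It had 87.9% and 92.2%, 91.8% and 91.9%, and 75.9% and 80.4%, and 17.9% of its windows occur elsewhere. The quasi-binomial adjusted p was 0.00541 against WT and 0.00681 against hSTAT5B.

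At Mcts2 (chr2:152686810-152687230, 21 CpGs) the levels were 96.3% and 98.3% in WT, 96.8% and 96.4% in hSTAT5B and 91.2% and 91.0% in hSTAT5BN642H, with a quasi-binomial adjusted p of 0.0153. In the last exon of Zscan2, a zinc finger gene, they were 89.4% and 89.5%, 88.6% and 86.2%, and 81.6% and 80.7% (quasi-binomial adjusted p = 0.0153). The long CGI over the filaggrin gene Flg (11629 bp, 201 CpGs) had 95.3% and 95.3%, 94.3% and 93.5%, and 91.4% and 92.5% (quasi-binomial adjusted p = 0.00944), and 92.6% of its windows are repeated. Both hSTAT5BN642H libraries were below the other 4 at all 5 CGIs.

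Against hSTAT5B, the same model called Hoxa5 and Tmtc1 again, and Ccm2l and Cnbd2. Ccm2l, a relative of the endothelial gene Ccm2, had 98.3% and 96.6% in WT, 97.9% and 98.2% in hSTAT5B and 94.6% and 93.8% in hSTAT5BN642H (quasi-binomial adjusted p = 0.0236). Cnbd2, which encodes a cyclic nucleotide binding protein, moved the other way. Its intronic CGI had 87.6% and 78.1%, 83.1% and 81.4%, and 94.2% and 93.4%. The difference from WT was 11.0 points, and 6.27 without WT replicate 2. Against hSTAT5B it had a quasi-binomial adjusted p of 0.044, and 99.9% of its windows occur elsewhere.

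At several of the widest differences the WT libraries themselves were far apart. In Neurl1b, a ubiquitin ligase gene of the Neuralized family, the levels were 71.4% and 88.8% in WT, 88.9% and 87.8% in hSTAT5B and 65.95% and 73.2% in hSTAT5BN642H, and the difference between the transgenic lines was -18.8 points. In Elfn2 they were 66.7% and 95.8%, 97.7% and 100%, and 86.2% and 84.7%. Near Gm26897 they were 67.5% and 92.2%, 100% and 91.7%, and 86.0% and 81.6%, with a difference of -12.01 points between the transgenic lines that was -7.84 without hSTAT5B replicate 1. WT replicate 1 was the lower WT library at each. For Elfn2 the difference of hSTAT5B from WT was 17.6 points with both WT libraries, 3.05 without WT replicate 1 and 32.2 without WT replicate 2.

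The remaining named CGIs were mostly higher in a transgenic line. Dlgap3, a gene of postsynaptic scaffolds, had 74.5% and 87.3% in WT, 84.3% and 85.1% in hSTAT5B and 92.8% and 91.0% in hSTAT5BN642H. Its WT libraries were also far apart, and the difference of hSTAT5BN642H from WT, 11.0 points, was 4.61 without WT replicate 1 and 17.4 without WT replicate 2. Xkr7 had 73.5% and 78.4%, 89.3% and 83.7%, and 83.4% and 88.1%, so that both transgenic lines were above WT. Its hSTAT5B difference of 10.6 points was 5.23 with every CpG that had 5 reads in a library. Both lines were above WT at Pik3r2, which encodes a regulatory subunit of PI3 kinase, with 80.9% and 74.3%, 84.96% and 87.0%, and 82.8% and 86.5%. Its hSTAT5B difference from WT was 8.39 points, and 5.07 without WT replicate 2. The transgenic lines were also above WT at Gnmt, which encodes glycine N-methyltransferase, with 81.7% and 77.4%, 83.2% and 91.6%, and 87.1% and 90.9%. There the hSTAT5B difference of 7.82 points was 3.6 without hSTAT5B replicate 2 and 12.04 without hSTAT5B replicate 1.

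Near Chst11, hSTAT5B was above the other genotypes, with 76.8% and 86.7% in WT, 91.2% and 94.3% in hSTAT5B and 88.7% and 83.5% in hSTAT5BN642H. The hSTAT5B difference from WT was 11.0 points, and 6.08 without WT replicate 1. At Spopl hSTAT5B was lowest, at 80% and 81.9%, against 89.3% and 87.7% in WT and 87.7% and 87.3% in hSTAT5BN642H, and 43.8% of the windows occur elsewhere. Near Olfr49 the levels were 84.2% and 74.6%, 71.8% and 73.8%, and 91.0% and 84.8%, with all windows repeated. At Mpst, a mercaptopyruvate sulfurtransferase gene, 1 hSTAT5B library carried the difference of -9.1 points from WT, with 96.9% and 95.2% in WT, 79.4% and 94.6% in hSTAT5B and 91.5% and 90.7% in hSTAT5BN642H. Without hSTAT5B replicate 1 that difference was -1.5 points, without hSTAT5B replicate 2 it was -16.7 and with 10 reads per CpG it was -0.563.

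**Figure D5:**
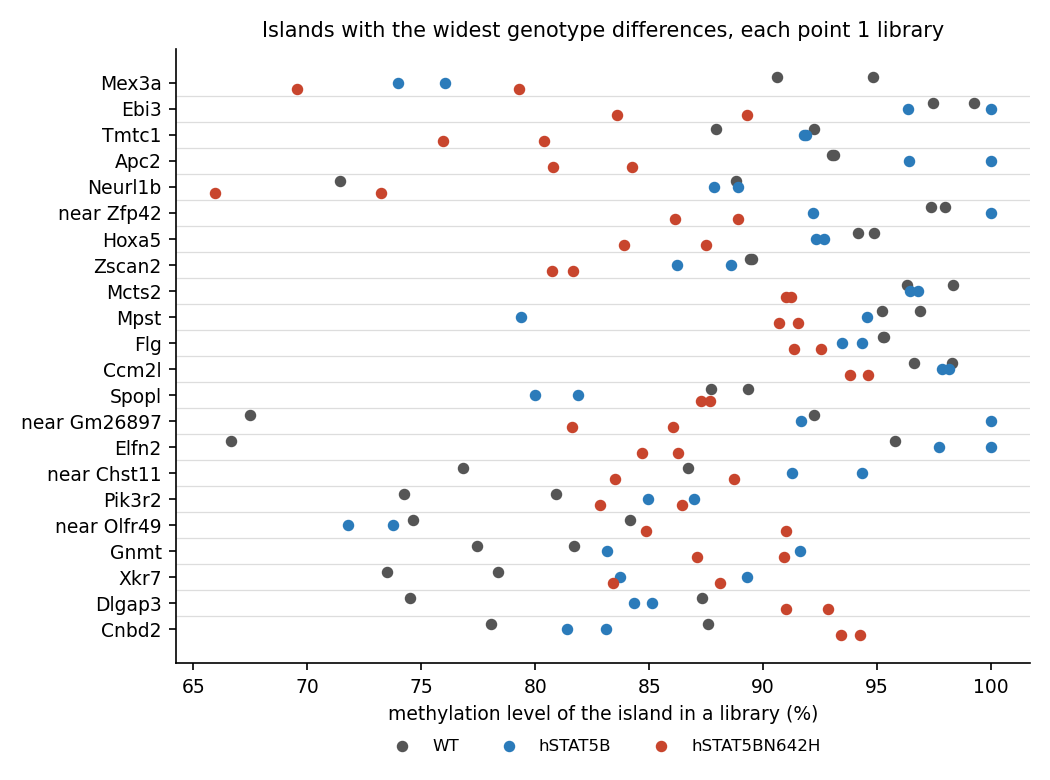
Levels at the 22 CGIs with the widest or quasi-binomially called genotype differences. Each point is 1 library, the horizontal axis gives the methylation level in percent, and CGIs are ordered from those lowest to those highest in hSTAT5BN642H relative to WT. At Mex3a both transgenic lines are below WT, at Ebi3, Tmtc1 and Apc2 hSTAT5BN642H is lowest, and at Dlgap3 and Cnbd2 it is highest.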

How the data were processed

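Reduced representation bisulfite sequencing (RRBS) was done on genomic DNA of 6 libraries. The authors trimmed reads with Trimmomatic, aligned them to GRCm38 (mm10) with BSMAP in its RRBS mode, and deposited, for each CpG, the count of methylated and of all reads, and a score that is the methylated share in thousandths. Versions and the handling of reads with several matches are not given in the sources used here. The scores were used only to check the counts.

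CGIs were called on the repeat-masked genome by the UCSC rule (length over 200 bp, GC over 50%, observed-to-expected CpG over 0.6) and annotated with GENCODE. A CpG needed 5 reads in every library and a CGI 5 such CpGs. A level is methylated over total reads. Genotypes were compared with limma 3.58.1 (R 4.3.3) on log2((methylated + 1)/(unmethylated + 1)) over all 12287 tested CGIs, with Benjamini-Hochberg adjustment. The model was also run on simulated data, and its power at differences of the size seen here is not reported. A quasi-binomial model and Fisher's exact test were alternatives. Reads are not independent molecules, so tests on reads overstate the precision. Named CGIs were, per comparison, the 8 with the largest difference among those with no overlap and 50 or more reads per library, the 12 deepest at starts, the 3 on each side of the threshold, the 3 highest, and up to 4 per gene list, of which the text gives those that carry a result. The members, the 15 gene lists and the tests were chosen with earlier results of these data known. The marker list of 1 further cell type is not reported here.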

Additional observations from a re-analysis of the deposited data

How the results depend on the processing

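The lower mean in hSTAT5BN642H kept its direction in every alternative run. Leaving out each library in turn gave -0.718 to -0.352 points against WT, -0.991 to -0.727 against hSTAT5B, and 0.141 to 0.507 for hSTAT5B against WT. With a threshold of 70% in place of 80% the difference between hSTAT5BN642H and hSTAT5B was -1.14 points. With reads pooled over the members, an alternative chosen after seeing the data, it was -0.696.

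Counts depended more on the settings. CGIs 5 or more points apart numbered 52 for hSTAT5BN642H against WT, 38 for hSTAT5B against WT and 52 for hSTAT5BN642H against hSTAT5B. With 10 reads per CpG, which left 449 members, the first 2 were 30 and 25. That setting gave no value for the differences at Mex3a, Ebi3, Apc2, Xkr7 and Elfn2. Over 90% (524 members) the 3 counts were 27, 14 and 33, and over 70% (683 members) they were 79, 67 and 83. The sets differ in size from the 617 members, so these counts are not shares. Without 1 library they ran from 61 to 74, 47 to 60 (60 without WT replicate 2) and 67 to 79 (79 without hSTAT5B replicate 1). Counts of CGIs without overlap ran from 403 to 446, 379 to 407 and 388 to 441 when 1 library was left out, since a single library overlaps less by construction.

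No CGI passed limma in any alternative that used it, whereas the quasi-binomial model called 5 and 4 CGIs in the comparisons with hSTAT5BN642H and Fisher's exact test 68, 38 and 78. With the replicate number as a block 0 members passed (0 in each comparison, smallest adjusted p 0.877 in limma for hSTAT5BN642H against WT). Same-numbered libraries did not deviate together over the members (r from -0.0217 to 0.000459). The labels give them a shared number, and whether they also shared a batch is not stated. With genes of all types, 18.5% of members spanned a start and 80.9% were inside a gene; without members with repeated windows, an alternative chosen after seeing the data, 88.1% were inside a protein-coding gene. Differences of under 5 points at single CGIs are limited by depth and by 2 libraries per genotype.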
